A study of Mus musculus with 6 samples.

Results

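Neutrophils are built in the bone marrow in a fixed order of granules. Promyelocytes first make azurophil granules, filled with myeloperoxidase and serine proteases, while the regulators Gfi1 and Myb are active. Later stages switch, under C/EBP epsilon, to specific granules filled with lactoferrin, cathelicidin and lipocalin, and then add the surface receptors and cytosolic proteins of the mature cell. Cultures of marrow with GM-CSF, a cytokine that drives precursors towards dendritic cells and macrophages, also carry granulocytes for a time.

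The 36 genes described here were named, with earlier results of these data known, as a list of neutrophil granule and maturation genes. They were found by their symbols among the 24062 genes of each count table. All but Ly6g had a row, so 35 are described, 7 of the azurophil stage and 28 of specific granules and late maturation; Ly6g was not analysed here. Marrow of C57BL/6J femurs and tibias grew, in GM-CSF at 20 ng/ml, on a stiff substrate of 50 kPa, called high tension and seen in fibrosis and inflammation, or on a soft substrate of 2 kPa, called low tension and close to normal tissue. All cultures received fresh GM-CSF on days 3, 6 and 10, and the polyA RNA of 3 samples at each stiffness was sequenced. The titles call the samples dendritic cells, but no sort is named, so each value is an average over all cells in the well. The comparison sets gene expression in such cultures at 50 kPa beside that at 2 kPa.

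Libraries held 33834485 to 36270938 counts, and levels are given as CPM, counts scaled to a common library size with edgeR's TMM factors. Whether replicates are separate cultures or mice is not in the labels, and the p-values rest on a spread between samples that may be technical. High tension replicates 1 and 2 were by far the closest pair of libraries (chi-square divided by its degrees of freedom, 6.71; every other pair, 122 to 418). High tension replicate 3 and low tension replicate 1 were no further from each other (122) than from libraries of their own stiffness. Of the dendritic cell markers listed, Itgax, Cd74 and H2-Ab1 were at 298.7 CPM or above in every library. Zbtb46 lay between 7.08 and 12.6 CPM and Flt3 between 2.09 and 9.19 CPM. Xcr1 was at 0.174 CPM or below.

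At 50 kPa 12 of the 35 neutrophil genes fell, 0 rose and 23 were not called by edgeR's quasi-likelihood test at a Benjamini-Hochberg adjusted p under 0.05 over all 13155 genes tested, of which 1.98% were called lower and 1.47% higher. The 12 were the specific granule genes Ltf, Camp, Ngp, Cd177, Pglyrp1, Olfm4 and Itgb2l, the cytosolic genes S100a8, S100a9, Stfa2 and BC100530, and the secreted Retnlg. Their fold changes ran from 2.995-fold (Retnlg) to 9.71-fold lower (Ltf). The fold changes of 34 of the 35 genes were negative, Anxa1 being the exception, with a median log2 fold change of -2.28 beside -0.03 over all tested genes. At least 2-fold lower were 32 of the 35, as were 8.07% of all tested genes, and 30 were lower at an unadjusted p under 0.05, as were 14.8%. In bulk RNA, fewer cells of a type and less RNA per cell cannot be told apart. The neutrophil genes together took 0.166%, 0.166% and 0.263% of all counts at 50 kPa, against 0.542%, 1.17% and 0.668% at 2 kPa.

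The calls rested on single libraries. Without high tension replicate 1 or 2, or without low tension replicate 2 or 3, edgeR called 0 of the 35 genes. Of all genes it called 0, 0, 1 and 3. In these 4 fits 23, 23, 25 and 26 of the neutrophil genes were lower at an unadjusted p under 0.05. Of all tested genes, 2080 of 13413, 2062 of 13412, 2787 of 13255 and 4184 of 13351 passed that threshold in either direction. Whichever library was left out, all 12 called genes were lower at an unadjusted p under 0.05, although most of the same libraries had called them. Without high tension replicate 3 edgeR called 14 of the 35, beside 333 of all 13418 genes tested. Without low tension replicate 1 it called 15, beside 511 of 13362. DESeq2 called 29 of the 35 lower and 0 higher, beside 9.51% of all tested genes called lower. High tension replicates 1 and 2, the closest pair, counted as separate samples in these calls. When they were summed into 1 library, edgeR called 0 of the 35 and 0 of all 13429 genes tested. In that fit 24 of the 35 were lower at an unadjusted p under 0.05, and 2138 of all genes passed it in either direction.

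The sequences upstream of a few of these genes are shown to set motifs of azurophil and later genes side by side. RefSeq promoters (GRCm38.p6, 250 bases before to 50 after the start) were matched for 31 of the 35 genes, all but Cebpe, Hp, BC100530 and Trem3. A C/EBP core, TTNNGNAA on either strand, was present in 2 of 7 azurophil and 18 of 24 later promoters, and in 40.7% of all 32841 promoters of this length. A PU.1 core, GAGGAA on either strand, was present in 5 of 7 azurophil and 16 of 24 later promoters, and in 28.3% of all. Matches to RUNX (TGTGGT) were found in 1 of 7, 6 of 24 and 16.8%, and to MYB (AACNG) in 6 of 7, 21 of 24 and 80.3%. These matches were not tested, base composition was not matched, and a match of letters is not a site. Capitals below mark both cores, which overlap in none of the 6 promoters shown; the PU.1 core reads GAGGAA or TTCCTC, and all other capitals are the C/EBP core. Elane and Prtn3 stand for the azurophil proteases, Ltf and Ngp for the specific granules, and Stfa2 and Stfa2l1 for the stefin copies.
Elane (chr10:79886062-79886361, plus strand): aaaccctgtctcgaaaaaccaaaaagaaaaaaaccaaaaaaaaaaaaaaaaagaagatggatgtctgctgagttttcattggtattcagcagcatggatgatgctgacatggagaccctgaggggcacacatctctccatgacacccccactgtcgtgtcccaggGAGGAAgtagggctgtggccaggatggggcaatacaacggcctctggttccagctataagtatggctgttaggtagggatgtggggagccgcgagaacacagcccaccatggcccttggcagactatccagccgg
Prtn3 (chr10:79879417-79879716, plus strand): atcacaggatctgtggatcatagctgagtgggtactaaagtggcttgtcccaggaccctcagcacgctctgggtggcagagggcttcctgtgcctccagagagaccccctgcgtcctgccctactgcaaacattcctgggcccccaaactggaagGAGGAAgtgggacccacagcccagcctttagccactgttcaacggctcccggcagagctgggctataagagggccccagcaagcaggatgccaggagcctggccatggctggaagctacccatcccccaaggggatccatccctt
Ltf (chr9:111019042-111019341, plus strand): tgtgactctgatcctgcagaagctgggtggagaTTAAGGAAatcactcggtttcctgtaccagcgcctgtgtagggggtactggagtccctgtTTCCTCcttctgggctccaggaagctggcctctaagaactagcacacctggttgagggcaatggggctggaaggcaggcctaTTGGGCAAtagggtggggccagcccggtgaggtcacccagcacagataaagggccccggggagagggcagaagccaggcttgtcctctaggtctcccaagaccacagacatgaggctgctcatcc
Ngp (chr9:110419558-110419857, plus strand): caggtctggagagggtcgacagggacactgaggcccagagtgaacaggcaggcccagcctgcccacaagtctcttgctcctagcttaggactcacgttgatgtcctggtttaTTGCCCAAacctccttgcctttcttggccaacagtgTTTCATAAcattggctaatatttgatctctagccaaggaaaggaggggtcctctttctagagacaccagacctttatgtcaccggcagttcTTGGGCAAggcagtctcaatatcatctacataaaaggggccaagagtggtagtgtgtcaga
Stfa2 (chr16:36408314-36408613, minus strand): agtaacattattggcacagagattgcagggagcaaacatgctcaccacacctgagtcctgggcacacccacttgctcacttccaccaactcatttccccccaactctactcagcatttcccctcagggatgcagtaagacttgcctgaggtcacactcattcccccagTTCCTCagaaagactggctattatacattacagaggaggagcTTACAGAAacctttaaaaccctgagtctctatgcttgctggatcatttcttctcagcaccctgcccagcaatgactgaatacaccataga
Stfa2l1 (chr16:36156561-36156860, plus strand): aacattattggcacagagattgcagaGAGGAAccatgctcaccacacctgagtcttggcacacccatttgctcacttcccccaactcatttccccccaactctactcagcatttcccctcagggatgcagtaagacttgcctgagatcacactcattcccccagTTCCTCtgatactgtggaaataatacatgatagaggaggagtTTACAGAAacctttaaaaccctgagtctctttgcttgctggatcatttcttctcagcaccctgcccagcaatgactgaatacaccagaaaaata
Elane and Prtn3 each hold 1 PU.1 core and 0 C/EBP cores, as do Ctsg and, with 2 PU.1 cores, Mpo. Ltf holds 2 C/EBP cores and Ngp 3. Other promoters, not shown, differ from this: the azurophil Ms4a3 holds 2 C/EBP cores and Gfi1 1. The specific granule genes Camp and Pglyrp1 hold 0. The promoters of Stfa2 and Stfa2l1 are the same at 275 of 300 positions when aligned.

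Of the 7 azurophil genes edgeR called 0. Their median log2 fold change was -2.91, beside -2.18 for the 28 later genes, and without low tension replicate 2 it was -1.78, beside -1.77. In all 7 every 50 kPa library lay below every 2 kPa library, as did 16.9% of all tested genes; in 0 of the 35 neutrophil genes did every 50 kPa library lie above, as it did in 17.2% of tested genes. All 7 were lower at edgeR's unadjusted p under 0.05, DESeq2 called 7 lower and limma-voom called 0.

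Prtn3, proteinase 3 (chromosome 10, 79874476 to 79883174, plus strand of GRCm38), had 3.204, 3.94 and 12.5 CPM at 50 kPa, against 23.8, 178 and 37.4 CPM at 2 kPa, in replicates 1 to 3 as in all such lists here. Low tension replicate 2 stood far above every other library and the groups did not overlap. The log2 fold change was -3.60 ± 0.97 (edgeR adjusted p = 0.0854). Elane, neutrophil elastase, the next gene along (chromosome 10, 79886247 to 79888215, plus strand), had 3.58, 4.33 and 21.9 CPM at 50 kPa, against 22.5, 159.8 and 42.6 CPM at 2 kPa. High tension replicate 3 was nearly level with low tension replicate 1 here, and the log2 fold change of -2.91 ± 1.02 did not pass (edgeR adjusted p = 0.134). Mpo, the peroxidase that makes hypochlorous acid, had 2.99, 3.67 and 21.01 CPM at 50 kPa, against 22.2, 156 and 45.6 CPM at 2 kPa. It showed the same order of libraries as Prtn3 (-3.01 ± 1.04, edgeR adjusted p = 0.132). Ctsg, cathepsin G, had 3.796, 1.94 and 9.98 CPM at 50 kPa, against 13.04, 87.9 and 22.9 CPM at 2 kPa. Its difference was -2.98 ± 0.91 (edgeR adjusted p = 0.108), with the lowest value in high tension replicate 2.

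Ms4a3, a membrane protein of granulocyte and monocyte progenitors, had 5.72, 7.11 and 12.1 CPM at 50 kPa, against 16.5, 102 and 27.3 CPM at 2 kPa. The groups did not overlap and the log2 fold change was -2.54 ± 0.73 (edgeR adjusted p = 0.0967). Myb, the transcription factor of immature haematopoietic cells, had 2.43, 1.85 and 4.54 CPM at 50 kPa, against 7.402, 43.01 and 13.3 CPM at 2 kPa. Its log2 fold change was -2.85 ± 0.73, with the smallest adjusted p of the 7 (edgeR adjusted p = 0.0802). Gfi1, a repressor needed for granulocyte differentiation, had 7.06, 6.42 and 8.56 CPM at 50 kPa, against 8.696, 35.5 and 20.7 CPM at 2 kPa. High tension replicate 3 and low tension replicate 1 were nearly level, and Gfi1 had the smallest log2 fold change of the 7, -1.56 ± 0.48 (edgeR adjusted p = 0.109). Mpo, Prtn3, Gfi1 and Myb overlap exons of an opposite-strand gene, and since no source used here gives the strand setting of the counting, their values may hold reads of both strands. BC100530 below has such an overlap too.

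**Figure D1:**
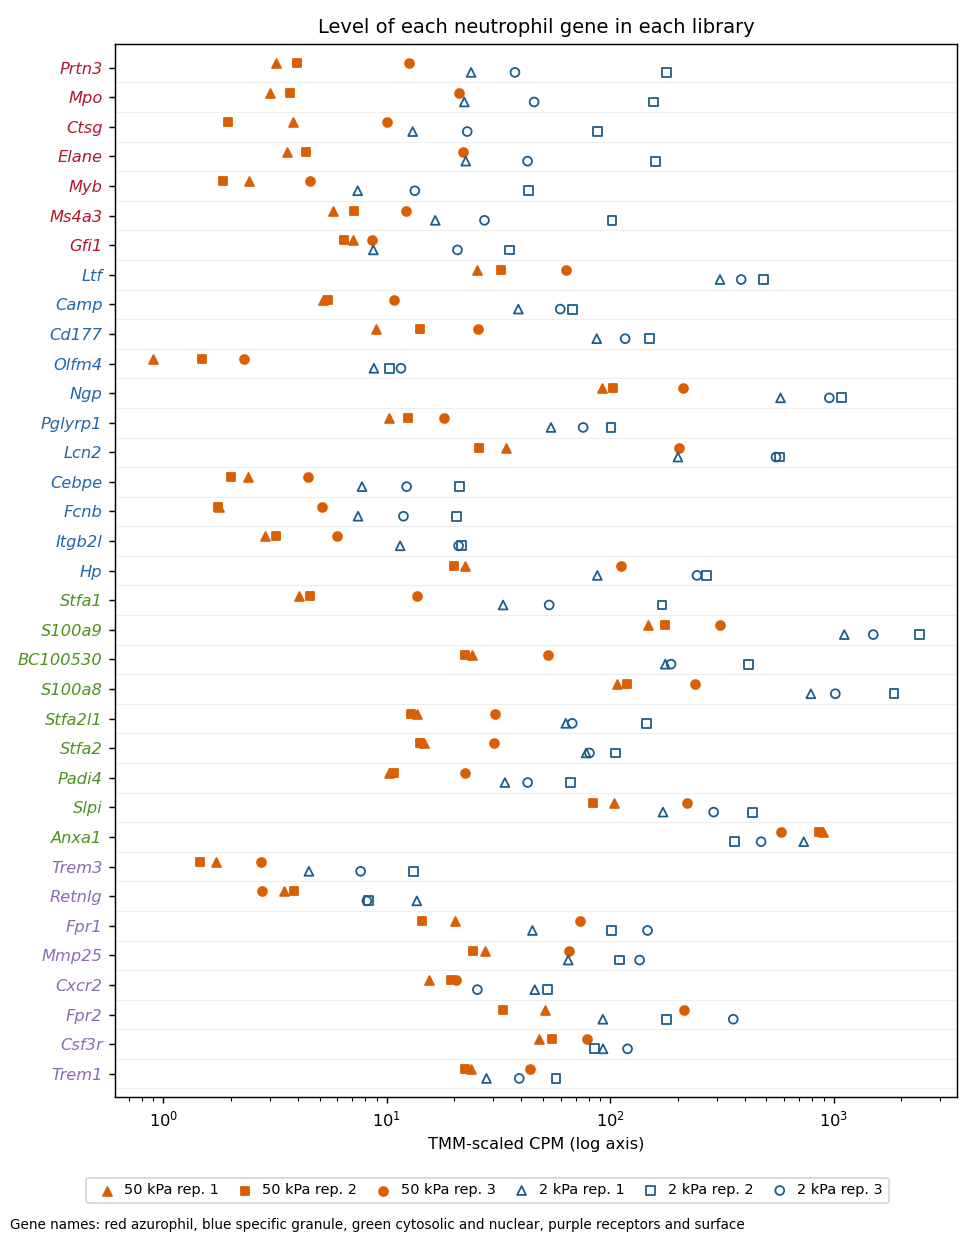
Level of each of the 35 genes in each library, as TMM-scaled CPM on a log axis, with the 3 high tension (50 kPa) libraries as filled orange symbols and the 3 low tension (2 kPa) libraries as open blue symbols below them. In the azurophil rows at the top the square of low tension replicate 2 stands apart to the right, Prtn3 reaching 178 CPM against 23.8 and 37.4 CPM in the other 2 kPa libraries, while in Ltf the 3 low tension symbols lie close together.

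Specific granule genes gave most of the calls, with 7 of 11 lower, 0 higher and 4 not called, and a median log2 fold change of -2.50. Ltf, the iron-binding lactoferrin (chromosome 9, 111019271 to 111042767, plus strand), had 25.3, 32.5 and 63.6 CPM at 50 kPa, against 309.6, 485 and 385 CPM at 2 kPa. The lowest 2 kPa library was 4.87 times the highest 50 kPa library, and Ltf fell by 3.28 ± 0.40 on the log2 scale (edgeR adjusted p = 0.0296). Camp, the cathelicidin precursor (chromosome 9, 109847379 to 109849617, minus strand), had 5.16, 5.43 and 10.8 CPM at 50 kPa, against 38.7, 67.6 and 59.7 CPM at 2 kPa. Camp fell 7.75-fold (-2.95 ± 0.37, edgeR adjusted p = 0.0304). Ngp, neutrophilic granule protein, a secreted cystatin-like protein of the same chromosome (chromosome 9, 110419747 to 110423012, plus strand), had 92.2, 103 and 210.5 CPM at 50 kPa, against 578, 1082 and 956 CPM at 2 kPa. It fell 6.45-fold (-2.69 ± 0.41, edgeR adjusted p = 0.0368) with a wide gap between the groups.

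Cd177, a surface glycoprotein of neutrophils and their specific granules, had 8.898, 14.1 and 25.5 CPM at 50 kPa, against 86.9, 150.2 and 117 CPM at 2 kPa. It fell 7.28-fold (-2.86 ± 0.42, edgeR adjusted p = 0.03597). Pglyrp1, a peptidoglycan recognition protein, had 10.3, 12.4 and 18.03 CPM at 50 kPa, against 54.3, 101 and 75.6 CPM at 2 kPa. It had the smallest standard error of the 7 (-2.50 ± 0.30, edgeR adjusted p = 0.0296). Olfm4, olfactomedin 4, a marker of a subset of neutrophils, had 0.902, 1.49 and 2.29 CPM at 50 kPa, against 8.75, 10.3 and 11.6 CPM at 2 kPa. Its 3 low tension values lay close together and it fell 6.51-fold (-2.70 ± 0.34, edgeR adjusted p = 0.0315). Itgb2l, an integrin beta-like protein of maturing neutrophils also called pactolus, had 2.86, 3.19 and 5.96 CPM at 50 kPa, against 11.5, 21.5 and 20.9 CPM at 2 kPa. It fell 4.48-fold (-2.16 ± 0.38, edgeR adjusted p = 0.0444), and the groups were clear of each other.

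The other 4 specific granule genes did not pass. Cebpe, which encodes C/EBP epsilon, the switch to specific granules, had 2.396, 2.00 and 4.43 CPM at 50 kPa, against 7.74, 21.2 and 12.3 CPM at 2 kPa. The groups did not overlap and the difference was -2.22 ± 0.47 (edgeR adjusted p = 0.0576). Fcnb, ficolin B, a lectin of the complement system, had 1.77, 1.76 and 5.15 CPM at 50 kPa, against 7.43, 20.6 and 11.9 CPM at 2 kPa. It stood at -2.20 ± 0.57, again with groups apart (edgeR adjusted p = 0.081). Leaving out high tension replicate 3 gave -2.90 for Fcnb. Lcn2 and Hp were singled out after their values were seen. Lcn2, the siderophore-binding lipocalin 2, had 34.1, 25.8 and 203 CPM at 50 kPa, against 201, 574 and 552 CPM at 2 kPa. Here high tension replicate 3 was level with low tension replicate 1, so the groups overlapped and a log2 fold change of -2.33 ± 0.89 did not pass (edgeR adjusted p = 0.156). Hp, the haemoglobin scavenger haptoglobin, had 22.4, 19.9 and 112 CPM at 50 kPa, against 87.5, 270.2 and 244 CPM at 2 kPa. The same library again lay above the lowest 2 kPa value (-1.96 ± 0.79, edgeR adjusted p = 0.173).

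Among the cytosolic, nuclear and inhibitor proteins 4 of 9 fell, 0 rose and 5 were not called, with a median of -2.28. S100a9 and S100a8 form calprotectin, a calcium- and zinc-binding dimer that fills the neutrophil cytosol. S100a9 (chromosome 3, 90692632 to 90695721, minus strand) had 148, 176 and 310.1 CPM at 50 kPa, against 1115, 2412 and 1502 CPM at 2 kPa. It fell 7.93-fold (-2.99 ± 0.42, edgeR adjusted p = 0.0349). S100a8 (chromosome 3, 90668978 to 90670035, plus strand) had 107, 119 and 240.4 CPM at 50 kPa, against 789.8, 1859 and 1016 CPM at 2 kPa. The groups of both genes were far apart, and S100a8 fell 7.85-fold (-2.97 ± 0.47, edgeR adjusted p = 0.0381). Per kb of exon, where levels of different genes can be set side by side, S100a9 was highest of the 35 in both groups, with 405 ± 166 CPM per kb at 50 kPa and 3211 ± 1275 CPM per kb at 2 kPa (SD, n = 3). S100a8 followed at 2 kPa, with 224 ± 106 CPM per kb at 50 kPa and 1761 ± 812 CPM per kb at 2 kPa. Ngp was next there, with 111 ± 53.5 CPM per kb at 50 kPa and 714 ± 215 CPM per kb at 2 kPa. At 2 kPa these neighbours in the order lay more than 1 SD apart. At 50 kPa the order was S100a9, Anxa1 and S100a8, each within 1 SD of the next, Anxa1 having 268 ± 59.3 CPM per kb at 50 kPa and 179 ± 66.1 CPM per kb at 2 kPa.

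The stefins, small inhibitors of cysteine proteases, form a cluster of copies on chromosome 16. Stfa2 (chromosome 16, 36403992 to 36408457, minus strand) had 14.7, 14.1 and 30.3 CPM at 50 kPa, against 77.98, 106 and 80.7 CPM at 2 kPa. It fell 4.48-fold (-2.16 ± 0.33, edgeR adjusted p = 0.0369). BC100530 (chromosome 16, 36359382 to 36367748, minus strand) had 23.96, 22.3 and 52.7 CPM at 50 kPa, against 176, 414 and 187 CPM at 2 kPa. It fell 7.85-fold (-2.97 ± 0.50, edgeR adjusted p = 0.0414), with low tension replicate 2 more than 2-fold above the other 2 kPa libraries. Stfa1 had 4.04, 4.51 and 13.6 CPM at 50 kPa, against 33.1, 170.3 and 53.3 CPM at 2 kPa. Singled out after its values were seen, it was far highest in low tension replicate 2, and it did not pass (-3.53 ± 0.81, edgeR adjusted p = 0.0662). Without that library its log2 fold change was -2.55. Stfa2l1 had 13.6, 12.9 and 30.5 CPM at 50 kPa, against 63.2, 145 and 67.5 CPM at 2 kPa. Its log2 fold change of -2.28 ± 0.48 had an edgeR adjusted p of 0.0581. Of the 50-base windows in their GENCODE transcripts, 36.2% of BC100530, 24.6% of Stfa2l1, 22.5% of Stfa1 and 15.9% of Stfa2 also occur in another gene, Stfa1 sharing with BC100530 and Stfa2 with Stfa2l1, so the split of reads among the 4 is uncertain. All 4 differences had the same sign.

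Padi4, the enzyme that citrullinates histones in neutrophil extracellular traps, had 10.3, 10.7 and 22.3 CPM at 50 kPa, against 33.7, 66.3 and 42.7 CPM at 2 kPa. It stood at -1.72 ± 0.39 with groups that did not overlap (edgeR adjusted p = 0.0659). Slpi, an inhibitor of elastase and cathepsin G, stood at -1.14 ± 0.47 (edgeR adjusted p = 0.18). Anxa1, annexin A1, a protein of neutrophils, macrophages and epithelia that dampens inflammation, was the exception to the direction of the rest. Anxa1 had 898, 858 and 581 CPM at 50 kPa, against 734, 358 and 473 CPM at 2 kPa. It was lowest in low tension replicate 2, the library in which 28 of the 35 genes were highest, and the groups overlapped (0.58 ± 0.31, edgeR adjusted p = 0.265).

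**Figure D2:**
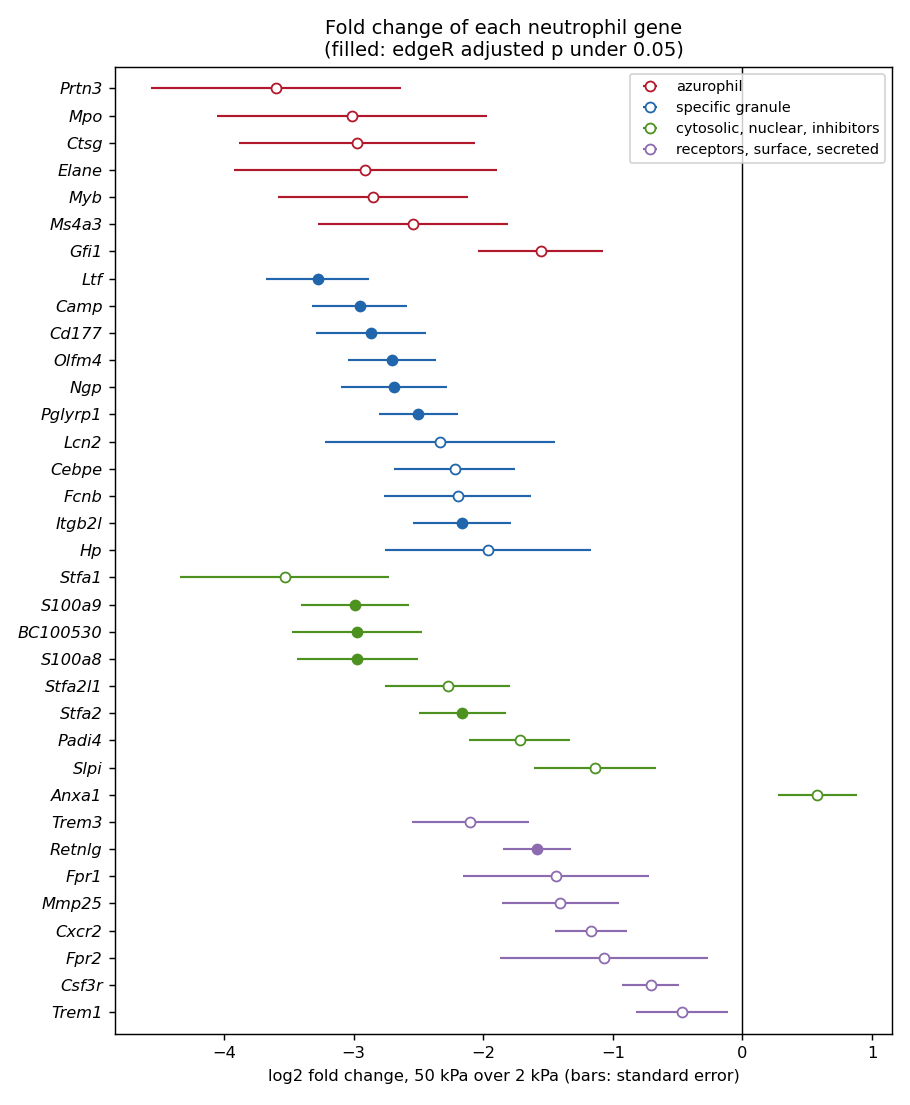
Log2 fold change of each gene, 50 kPa over 2 kPa, with its standard error (bars), coloured by group; filled points passed edgeR's adjusted p under 0.05. The 7 azurophil genes have large negative values with wide bars (Mpo -3.01 ± 1.04), the called specific granule genes have similar values with narrow bars (Ltf -3.28 ± 0.40), and Anxa1 alone lies right of 0.

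Receptors and surface or secreted proteins of mature neutrophils had the median nearest 0 of the 4 groups of genes, with 1 of 8 lower, 0 higher and 7 not called, and a median log2 fold change of -1.29. The difference between this median and those of the granule groups was not tested. Retnlg, a resistin-like secreted protein, had 3.45, 3.82 and 2.75 CPM at 50 kPa, against 13.6, 8.28 and 8.14 CPM at 2 kPa. It fell 2.995-fold (-1.58 ± 0.26, edgeR adjusted p = 0.0394), and it was highest in low tension replicate 1 and lowest in high tension replicate 3, unlike the granule genes. Without high tension replicate 3 its log2 fold change was -1.45 and it was not called (edgeR adjusted p = 0.0647). Csf3r, Fpr1 and Fpr2 were singled out after their values were seen. Csf3r, the receptor for G-CSF, the main growth factor of neutrophils, had 48.1, 54.8 and 78.7 CPM at 50 kPa, against 92.8, 84.6 and 119 CPM at 2 kPa. Its groups did not overlap, and the difference of -0.71 ± 0.22 did not pass (edgeR adjusted p = 0.111). Cxcr2, the chemokine receptor that draws neutrophils out of the marrow, had 15.4, 19.3 and 20.3 CPM at 50 kPa, against 45.9, 52.3 and 25.4 CPM at 2 kPa. It stood at -1.17 ± 0.28 (edgeR adjusted p = 0.0694), and unlike Csf3r it was lowest of the 2 kPa libraries in replicate 3.

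Trem3, a relative of the receptor Trem1 that signals through DAP12, had 1.71, 1.46 and 2.72 CPM at 50 kPa, against 4.48, 13.2 and 7.63 CPM at 2 kPa. It was low throughout, its groups did not overlap, and it stood at -2.10 ± 0.45 (edgeR adjusted p = 0.0609). Trem1, an amplifying receptor of neutrophils and monocytes, stood at -0.47 ± 0.35 (edgeR adjusted p = 0.414). Mmp25, a membrane-anchored metalloproteinase of leukocytes, stood at -1.40 ± 0.45 (edgeR adjusted p = 0.118). Fpr1 and Fpr2 are receptors for formylated bacterial peptides. Fpr1 had 20.2, 14.4 and 73.3 CPM at 50 kPa, against 44.8, 101 and 147 CPM at 2 kPa. Fpr2 had 51.3, 33.2 and 213 CPM at 50 kPa, against 92.6, 178 and 355 CPM at 2 kPa. In both genes replicate 3 was the highest library of each stiffness and the groups overlapped (-1.44 ± 0.71 and -1.07 ± 0.80, edgeR adjusted p = 0.241 and 0.4103). Of the 50-base windows of Fpr2, 31.5% occur in another gene, so its counts are uncertain too.

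The spread within each stiffness differed between the azurophil and the later genes, a pattern noted after the values were seen and not tested. At 50 kPa replicate 3 was above both other libraries in 33 of the 34 genes with a negative fold change. In these 34 genes replicates 1 and 2 lay below every 2 kPa library, and of the 3684 tested genes of which that was true, replicate 3 was above both in 78.2%. Over the mean of replicates 1 and 2 its median ratio was 3.48 in azurophil genes (range 1.27 to 6.31) and 2.12 in the others (0.662 to 6.78), beside 0.997 over all tested genes. At 2 kPa replicate 2 was the highest of all 6 libraries in 28 of 35 genes, as in 28.4% of tested genes. Over the mean of replicates 1 and 3 its median ratio was 4.64 in azurophil genes (2.41 to 5.82), 1.501 in the others (0.594 to 3.94) and 1.01 over all tested genes. Summed azurophil CPM per 100 CPM of the later genes was 1.67, 1.72 and 3.41 at 50 kPa, against 2.295, 8.13 and 3.001 at 2 kPa. The ratio was thus high in a single 2 kPa library, and the groups overlapped.

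The azurophil fold changes depended on that library. Without low tension replicate 2 the median log2 fold changes were -1.78 in azurophil, -2.26 in specific granule, -2.01 in cytosolic and -1.27 in surface and secreted genes, so the azurophil median was no longer the lowest of the 4. It was the lowest in the main fit of all libraries and without any 1 of the other 5. With replicate number added to the fit of all libraries it was not the lowest. There it was -2.64, beside -2.74 in specific granule genes. Without low tension replicate 2 Prtn3 stood at -2.22, Mpo at -1.87, Myb at -1.82, Ctsg at -1.78, Elane at -1.71, Ms4a3 at -1.40 and Gfi1 at -1.002. Without high tension replicate 3 the medians were -3.83 in azurophil, -3.15 in specific granule, -2.78 in cytosolic and -1.72 in surface and secreted genes. That high tension replicates 1 and 2 were both below every 2 kPa library held for 34 of the 35 genes and for 28% of tested genes. Of the 8 genes whose groups overlapped, 7 had high tension replicate 3 above low tension replicate 1: Lcn2, Hp, Slpi, Fpr1, Fpr2, Trem1 and Mmp25. Without that 50 kPa library, in which these 7 are high by their choice, the log2 fold changes were -3.88 for Lcn2, -3.24 for Hp, -2.49 for Fpr1, -2.30 for Fpr2, -1.99 for Mmp25, -1.66 for Slpi and -0.83 for Trem1.

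**Figure D3:**
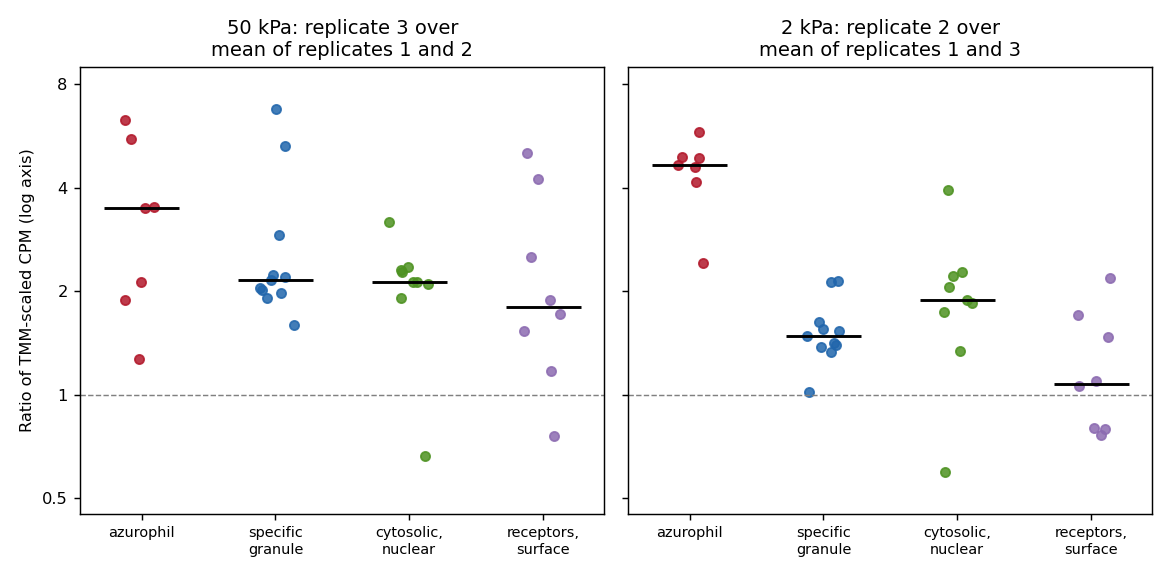
Ratio of 1 library to the mean of the other libraries of its stiffness, on a log axis, for each gene (points) by group, with the group median as a bar. Left, high tension replicate 3 at 50 kPa. Right, low tension replicate 2 at 2 kPa, where the azurophil points run from 2.41 to 5.82 and the later genes, Stfa1 highest at 3.94, have a median of 1.501.

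Other genes of the neutrophil programme, in lists drawn up by function, had medians nearer 0. Which cells of the culture made these transcripts was not tested, so the medians do not describe neutrophils alone. Itgam, for 1, averaged 1743 CPM at 50 kPa and 1217 CPM at 2 kPa. Of 12 gelatinase granule and oxidase genes edgeR called 0, with 2 lower and 3 higher at an unadjusted p under 0.05; DESeq2 called 1 lower and 4 higher and limma-voom 0. Their median log2 fold change was -0.20. Mmp9, gelatinase B, stood at -1.17 ± 0.28 (edgeR adjusted p = 0.0681). Lyz2, a lysozyme that macrophages also make, had 17268, 16923 and 15132 CPM at 50 kPa, against 11571, 6228 and 11528 CPM at 2 kPa, every 50 kPa library lying above every 2 kPa library (0.75 ± 0.32, edgeR adjusted p = 0.194). Of 14 regulators of granulocyte development edgeR and limma-voom called 0, DESeq2 called 4 lower, and 4 were lower at an unadjusted p under 0.05, with a median of -0.20. Lbr, the lamin B receptor that shapes the lobed nucleus, stood at -1.65 ± 0.38 (edgeR adjusted p = 0.0675), and the transcription factor Klf5 at -2.24 ± 0.56 (edgeR adjusted p = 0.0758).

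Of 23 further neutrophil genes 3 fell, 0 rose and 20 were not called, with a median of -0.58. DESeq2 called 11 lower and 2 higher, and 12 were lower and 2 higher at an unadjusted p under 0.05. The 2 higher were Chil3, described below, and Orm1, singled out after its values were seen. Orm1 had 30.5, 26.5 and 23.2 CPM at 50 kPa, against 9.11, 9.07 and 20.0 CPM at 2 kPa. Its groups did not overlap, but it did not pass (1.07 ± 0.34, edgeR adjusted p = 0.112). Ceacam10 had 2.58, 2.63 and 3.96 CPM at 50 kPa, against 14.3, 20.2 and 12.4 CPM at 2 kPa. Its groups were clear of each other, as in Ltf, and it fell by 2.35 ± 0.27 on the log2 scale (edgeR adjusted p = 0.0291). Asprv1, an aspartic protease, fell by 2.13 ± 0.30 (edgeR adjusted p = 0.0349).

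Markers of several other cell types moved with the neutrophil genes, and their part in the result was not tested. Of 7 tested B cell markers 6 fell, with a median of -2.81 and summed levels of 5.67 to 13.7 CPM at 50 kPa and 60.1 to 112 CPM at 2 kPa. Cd79b and Cd79a, the signalling chains of the B cell receptor, stood at -2.81 ± 0.33 and -3.36 ± 0.51 (edgeR adjusted p = 0.0291 and 0.03597), and Vpreb3 was at 0 in high tension replicates 1 and 2. Of 9 megakaryocyte markers 4 fell, with a median of -3.19 and summed levels of 81.4 to 248 CPM at 50 kPa and 231 to 391 CPM at 2 kPa. These were the platelet glycoprotein genes Gp9 (-3.92 ± 0.42, edgeR adjusted p = 0.0286), Gp1ba and Itga2b and the platelet chemokine Ppbp. Of 8 basophil and mast cell markers edgeR and limma-voom called 0, DESeq2 called 7 lower and 7 were lower at an unadjusted p under 0.05. Their median was -2.54, with summed levels of 158 to 216 CPM at 50 kPa and 326 to 789 CPM at 2 kPa. Mcpt8, a basophil protease, had 8.43, 4.72 and 24.6 CPM at 50 kPa, against 48.1, 195 and 79.99 CPM at 2 kPa, with low tension replicate 2 highest and high tension replicate 3 above its fellows, as in the azurophil genes.

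Of 9 eosinophil markers edgeR and limma-voom called 0, DESeq2 called 3 lower and 1 higher, and 4 were lower and 2 higher at an unadjusted p under 0.05. Their median was -1.42, with sums of 228 to 243 CPM at 50 kPa and 259 to 521 CPM at 2 kPa. Of 7 progenitor markers edgeR and limma-voom called 0, and DESeq2 called 4 lower, as many as had an unadjusted p under 0.05; the median was -1.37 and the sums were 126 to 164 CPM at 50 kPa and 129 to 199.8 CPM at 2 kPa. Of 7 classical monocyte markers edgeR called 2 lower and 0 higher. DESeq2 called 2 lower and 1 higher, as many as had an unadjusted p under 0.05. The proteoglycan gene Vcan fell (-1.93 ± 0.35, edgeR adjusted p = 0.0463). F13a1 was higher, with groups that did not overlap, but did not pass (0.86 ± 0.22, edgeR adjusted p = 0.0817). The median of the list was -0.84, with sums of 927 to 1587 CPM at 50 kPa and 1055 to 1559 CPM at 2 kPa. Of 8 erythroid markers only Epor was expressed enough to be tested (-1.54 ± 0.41), and the globin genes Hba-a1, Hba-a2, Hbb-bs and Hbb-bt were listed at 0 in all libraries.

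Other lists did not have negative medians of this size. Of 10 macrophage markers edgeR and limma-voom called 0, DESeq2 called 5 higher and 7 were higher at an unadjusted p under 0.05, with a median of 1.16 and sums of 4189 to 4713 CPM at 50 kPa and 1360.1 to 2872 CPM at 2 kPa. Of 11 dendritic cell markers edgeR called 0, limma-voom 1 lower, and DESeq2 4 lower and 3 higher, as many as had an unadjusted p under 0.05. At that unadjusted p Dpp4, Batf3, Flt3 and Ccr7 were lower and Itgax, H2-Ab1 and Cd74 higher. The median of the 11 was 0.16, with sums of 11849 to 17928 CPM at 50 kPa and 4984 to 9823 CPM at 2 kPa. Cd74 was the largest part of each sum, with 6959 to 10048 CPM at 50 kPa and 2900 to 5650 CPM at 2 kPa. Of 15 genes of cell division Mki67, a marker of cycling cells, fell by 0.69 ± 0.13 on the log2 scale (edgeR adjusted p = 0.0486), and the median was -0.60, with sums of 534 to 659 CPM at 50 kPa and 649 to 999 CPM at 2 kPa. Low tension replicate 2 was the highest library in 13 of these 15 genes, 6 of 8 basophil and mast cell markers and 7 of 7 B cell markers, and in 0 of 10 macrophage markers.

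**Figure D4:**
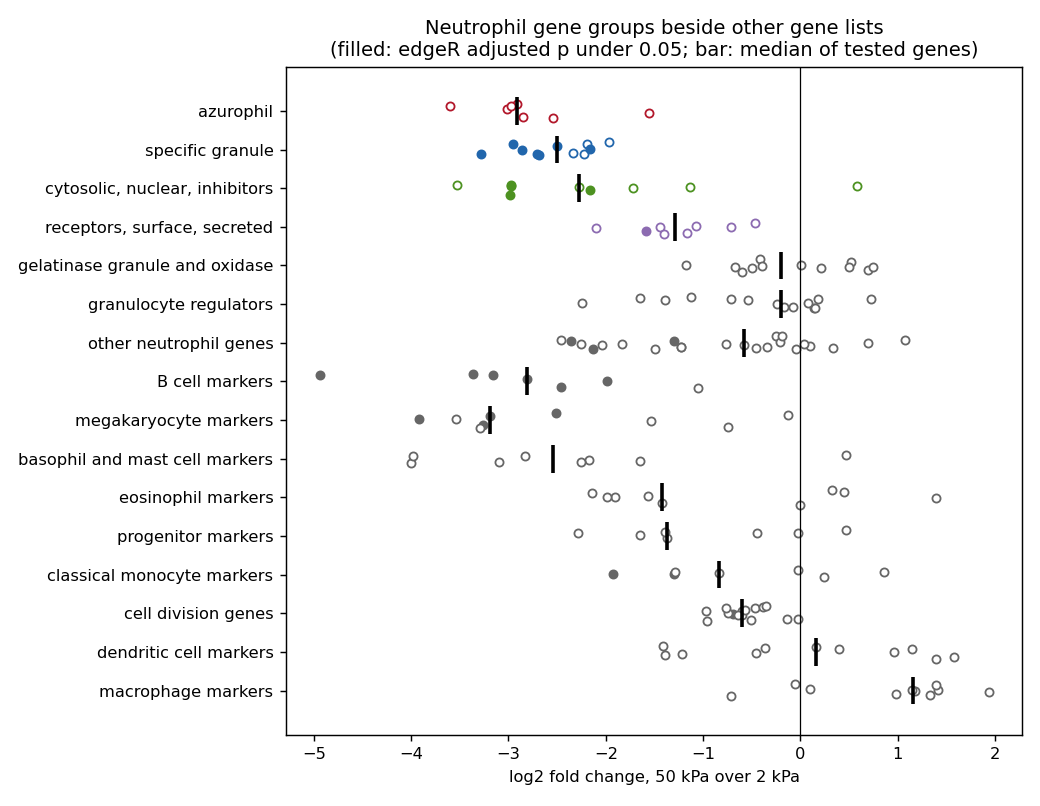
Log2 fold change, 50 kPa over 2 kPa, of each tested gene (points) in the 4 groups of neutrophil genes (coloured) and in 12 other lists (grey); filled points passed edgeR's adjusted p under 0.05 and bars are list medians. The neutrophil granule groups lie beside B cell, megakaryocyte and basophil markers at medians of -2.28 or below, while oxidase genes (-0.20) and macrophage markers (1.16) do not.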

How the data were processed

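The deposited values are raw read counts per gene symbol, 1 table per library. Per the submitters' processing notes, reads passed through tools named as TopHat2 2.0.11, FastQC 0.11.2, HTSeq 0.6.1p2 and edgeR (3.16.5 and 3.8.6), with mm10 and hg19 as builds. No source used here gives the tools' roles, the annotation or the strand setting. Titles gave each sample's tension and the treatment label its kPa.

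The tests ran in edgeR 4.0.16 under R 4.3.3 (filterByExpr, minimum count 10 and minimum total 15; TMM; glmQLFit and glmQLFTest, 2-sided). Benjamini-Hochberg adjustment covered 13155 genes. Fold changes are 50 kPa over 2 kPa, and a standard error is the log2 fold change divided by the square root of F. The procedure was also run on simulated data with 200 changed genes, and the outcome is not given here. Alternatives used DESeq2 1.42.0, limma 3.58.1, other scalings and filters, a replicate block, left-out libraries and summed high tension replicates 1 and 2. Members and lists were chosen with earlier results of these data known. Wfdc21, Siglecf and Adgre1 were matched by older symbols through RefSeq. Named were all azurophil genes, all members past the threshold, the 2 with the smallest p of those not called in each group, and any that were higher; from other lists, at most 4 past the threshold and 2 others. The other members are given by fold change, with levels where said to be singled out, and 1 gene past the threshold in the other lists is not reported here. Coordinates and exon lengths are those of GENCODE vM21 (GRCm38). Python 3.11.15, Biopython 1.88 and matplotlib 3.10.9 handled sequences and plots.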

Additional observations from a re-analysis of the deposited data

How the results depend on the processing

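The number of neutrophil genes called lower was 12 with TMM, RLE, upper-quartile and total-count scaling, without a low-count filter and with limma-voom, and the same 12 were called in each. It was 2 (Ltf and Pglyrp1) when 5 CPM was required in 3 libraries, where 36 of all genes were called in place of 454. DESeq2 called 29 lower, and 2372 of all genes. With high tension replicates 1 and 2 summed, edgeR called 0 neutrophil genes and 0 of all genes. Leaving out 1 library gave 0 to 15 neutrophil genes lower, 0 higher in each fit and 0 to 511 of all genes. In these fits the median log2 fold change was -3.83 to -1.78 for azurophil and -2.69 to -1.77 for later genes. No neutrophil gene changed sign in any alternative in which it was tested; Trem3 was not tested when 5 CPM was required. Total-count scaling moved the median of all genes to -0.16, in place of -0.03 with TMM, and split the calls into 257 lower and 77 higher, in place of 260 and 194.

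With the replicate block 14 neutrophil genes were lower, Csf3r and Mmp25 being added, and 776 of all genes were called. Deviations from the group means correlated at 0.54, -0.11 and 0.49 for numbers 1 to 3, and number was not used to pair samples. Below 1 CPM, counting error adds to the spread.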

Other observations

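Several inducible myeloid genes outside the neutrophil list, picked after their values were seen, were highest in replicate 3 within each stiffness, as were Fpr1 and Fpr2. Clec4e, the receptor Mincle, had 435, 362 and 1142 CPM at 50 kPa, against 449, 464 and 1993 CPM at 2 kPa. Cybb, the catalytic chain of the phagocyte oxidase, had 599.9, 589.7 and 1450.1 CPM at 50 kPa, against 780.0, 872 and 2349 CPM at 2 kPa. Ly6c2, a surface protein of classical monocytes, had 124, 68.6 and 785 CPM at 50 kPa, against 217, 741 and 789.6 CPM at 2 kPa. In all 3 genes the groups overlapped, and the log2 fold changes were -0.58 ± 0.73, -0.60 ± 0.56 and -0.84 ± 0.97 (edgeR adjusted p = 0.6196, 0.503 and 0.588).

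Chil3, a chitinase-like protein of macrophages and neutrophil precursors, went the other way from the granule genes, with 3391, 3088 and 2272 CPM at 50 kPa, against 1709, 1777 and 1932 CPM at 2 kPa. The groups did not overlap and the difference of 0.69 ± 0.20 did not pass (edgeR adjusted p = 0.102).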
